A study of Mus musculus with 12 samples.

Results

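Dnase1l3 (ENSMUSG00000025279) encodes a secreted DNase of the DNase I family, and it is 1 of the 52636 gene identifiers in the count table. It was found by its GENCODE M21 symbol and was selected on the measured difference of its antibody effect between tumor and liver, the clearest in the table. Its levels and its antibody effects are therefore given as descriptions, with no test. Tumor and liver of female wild-type mice (FVB/NJ) were dissociated, and their bulk RNA was sequenced. Each mouse carried a piece of an Fo5 tumor in the mammary fat pad, a mammary tumor line of an MMTV-HER2 transgenic founder in which the mammary tumor virus promoter drives HER2. Mice received 1 intravenous dose of vehicle buffer or a bispecific antibody at 5 mg/kg, the T cell-dependent anti-HER2/CD3 TDB, with one arm for HER2 and the other for CD3 on T cells, when tumors averaged 350 to 500 mm3. Organs were taken 24 h later, which gave 4 groups of 3 libraries, named tumor TDB, tumor vehicle, liver TDB and liver vehicle. The liver of every group is that of a tumor-bearing mouse, the labels give no age, and both tissues came from the same 3 mice per treatment by the design text, although no label ties a liver library to a tumor library.

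DNASE1L3 is released from cells and cuts DNA that is still wrapped in nucleosomes or enclosed in the membrane particles shed by dying cells. Dendritic cells and macrophages are known sources, and in liver Kupffer cells and sinusoidal endothelial cells are known to express it. Its loss in mice and in people leads to antibodies against DNA and to lupus-like disease. A short basic tail at its C terminus, which DNase I lacks, is needed for the digestion of membrane-enclosed DNA.

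That tail can be read in the coding sequence, which is shown because it separates Dnase1l3 from the 3 other genes of its family. Dnase1l3 lies on chromosome 14 at 7964533 to 7994573 of GRCm38, on the minus strand, and no other annotated gene overlaps it. GENCODE M21 lists a protein-coding transcript, Dnase1l3-201, of 8 exons and 4747 bases, and a noncoding transcript, Dnase1l3-202, of 2 exons and 503 bases. The last 25 codons before the stop codon of each family member are given from the GENCODE M21 transcripts, 5′ to 3′ on the coding strand, with codons for lysine or arginine in capitals. Those of Dnase1l3-201 lie at chr14:7967762-7967836.
Dnase1l3-201: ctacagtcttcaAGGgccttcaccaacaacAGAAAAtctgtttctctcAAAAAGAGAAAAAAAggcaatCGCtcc
Dnase1-201: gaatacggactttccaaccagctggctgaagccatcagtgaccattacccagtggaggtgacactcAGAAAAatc
Dnase1l1-201: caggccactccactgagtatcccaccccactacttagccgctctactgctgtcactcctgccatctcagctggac
Dnase1l2-201: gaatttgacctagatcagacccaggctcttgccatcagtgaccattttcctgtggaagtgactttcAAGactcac
In Dnase1l3, 9 of these 25 codons encode lysine or arginine (36% against 12.3% in the rest of its coding sequence) and 0 encode aspartate or glutamate. The corresponding numbers of basic codons are 2 in Dnase1, 0 in Dnase1l1 and 1 in Dnase1l2.

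Dnase1l3 was nearly absent from vehicle-treated tumor and was readily counted in every other group. The 3 tumor vehicle libraries held 7, 5 and 5 reads of the gene, or 0.337, 0.238 and 0.228 CPM (reads per 1000000 counts of the library). After TDB the tumor libraries held 954, 943 and 781 reads, or 42.9, 32.1 and 36.6 CPM. Each TDB tumor library thus lay far above each vehicle tumor library, and within a group the libraries were close to each other. The liver vehicle libraries held 1844, 1280 and 2142 reads (99.9, 65.5 and 106 CPM), and the liver TDB libraries held 3226, 4099 and 4407 reads (134, 160 and 214 CPM). Liver was high in both treatments, and the 2 liver groups did not overlap, although the gap between them was smaller than the range within either group. In bulk tissue, fewer cells of a type and less RNA per cell cannot be told apart.

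**Figure D1:**
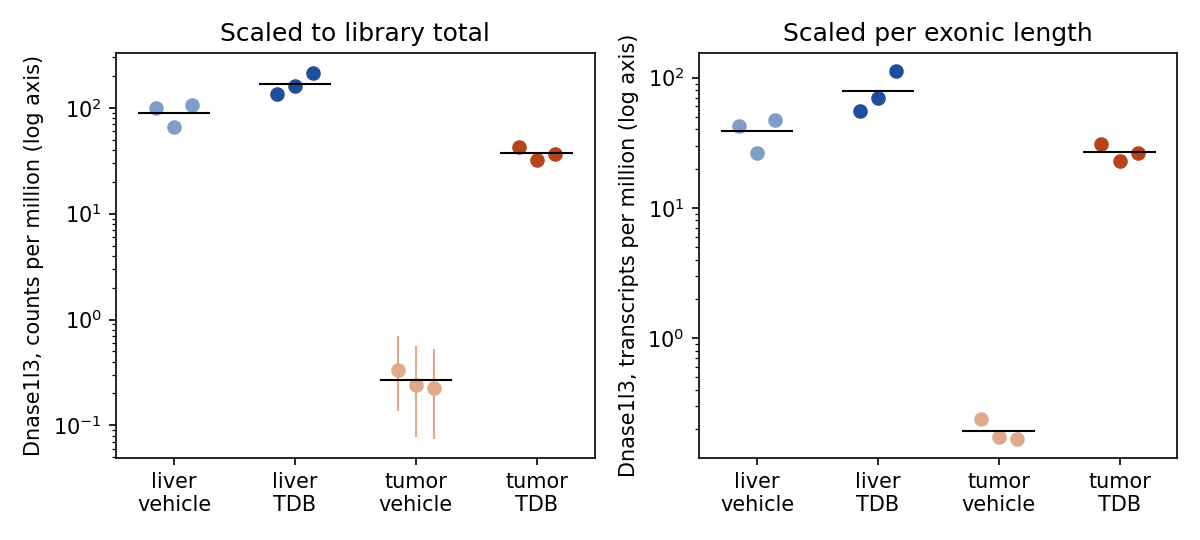
Dnase1l3 in each of the 12 libraries, in CPM (left) and in TPM, which also scales by exonic length (right), both on log axes, with the group mean as a horizontal line and, on the left, exact Poisson intervals of 95% as vertical lines (hidden by the points in 3 of the 4 groups). The tumor vehicle libraries sit at 0.228 to 0.337 CPM and the tumor TDB libraries at 32.1 to 42.9 CPM, while the liver groups sit above both.

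The group means were 0.268 ± 0.0600 CPM in tumor vehicle and 37.2 ± 5.43 CPM in tumor TDB (SD, n = 3 each), a 139-fold difference. On the log2 scale of the edgeR fit the tumor effect was 7.22 (SE 0.20, back-calculated from the F test). Larger SEs came from DESeq2 (effect 7.26, SE 0.38) and limma-voom (7.13, SE 0.43). As the tumor vehicle libraries hold 17 reads of the gene in all, against 2678 after TDB, counting error alone leaves the ratio of summed and depth-scaled counts between 85.8 and 237 (95%, exact conditional binomial). In liver the means were 90.3 ± 21.7 CPM for vehicle and 169.6 ± 41.1 CPM for TDB (SD, n = 3 each), a 1.88-fold difference and a log2 fold change of 0.80 (SE 0.24). The median log2 fold change of all tested genes was 0.04 in liver and -0.02 in tumor.

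Leaving out any single tumor library kept the tumor ratio of mean CPM between 128 and 160. The liver ratio was 1.63 without liver TDB 3, the highest liver library, and 1.65 without liver vehicle 2, the lowest. Liver TDB 3 also had the largest mitochondrial share of counts, 2.05% against 0.612% to 1.28% in the other 11 libraries. Its counts leaned toward genes with long exonic sequence (Spearman correlation across genes of deviation from the group mean with length, 0.632), and those of liver vehicle 2 leaned the other way (-0.440). Such leans were general in liver: -0.588 in liver TDB 1, -0.465 in liver TDB 2, 0.122 in liver vehicle 1 and 0.456 in liver vehicle 3. Within each treatment the liver libraries stood in the same order by this correlation and by Dnase1l3 CPM. Dnase1l3 has 5151 exonic bases, and the part of this length trend in its liver values was not tested.

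The difference of the log2 effects, tumor minus liver, was 6.38 (SE 0.35), where the median of all 16557 genes tested was -0.12. Since this contrast chose the gene, its rank is a description: Dnase1l3 stood first by p and 26th by size. The genes that followed by p were Slc2a6 (5.81), Gbp8 (7.60), Gbp4 (6.91), Batf2 (5.88) and Gm4951 (7.69), with the difference of log2 effects in parentheses. Slc2a6, Gbp8, Gbp4, Batf2 and Gm4951 had liver log2 fold changes of 1.07 to 3.66, all above the 0.80 of Dnase1l3. In tumor alone Dnase1l3 was 53rd by size among 15454 genes tested, and in liver alone it was 1178th among 13657.

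**Figure D2:**
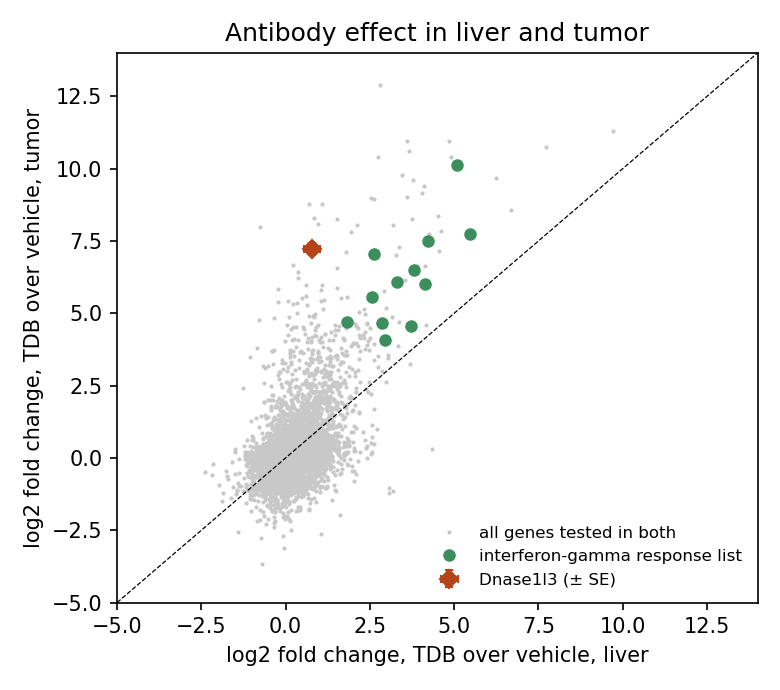
Log2 fold change of TDB over vehicle in liver (x axis) and tumor (y axis) for all genes tested in both tissues (grey points), the interferon-gamma response list (green) and Dnase1l3 (orange diamond, ± SE); the dashed line marks equal effects. Dnase1l3 lies at 0.80 in liver and 7.22 in tumor, to the left of all 12 listed interferon-gamma response genes.

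The order of the group means was the same on each scale, and the overlap of groups was not. In CPM the order was liver TDB, liver vehicle, tumor TDB, tumor vehicle, and no 2 groups overlapped. In TPM, transcripts per 1000000 as computed from the counts and the exonic length of each gene, the group means were 78.7 ± 29.3 in liver TDB, 38.6 ± 10.9 in liver vehicle, 26.8 ± 3.98 in tumor TDB and 0.193 ± 0.0396 in tumor vehicle (SD, n = 3 each). On that scale the liver vehicle libraries, at 26.3 to 46.9 TPM, overlapped the tumor TDB libraries, at 22.9 to 30.8 TPM. The overlap came from liver vehicle 2 (26.3 TPM), while liver vehicle 1 and 3 (42.6 and 46.9 TPM) lay above each tumor TDB library. With 3 libraries a group, overlap does not show that the groups are equal. Liver vehicle exceeded tumor TDB 2.43-fold in CPM, 1.44-fold in TPM and 5.59-fold with TMM scaling over the 12 libraries. By mean TPM, Dnase1l3 lay above 92.4% of the 27795 genes with counts in liver vehicle and above 95.4% in liver TDB. In tumor it lay above 32.5% of them after vehicle and above 77.2% after TDB.

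Within the DNase I family, Dnase1l3 was the main transcript of liver and Dnase1l1 that of vehicle-treated tumor. Dnase1l1, whose product is a membrane-anchored DNase known from muscle and macrophages, stood at 7.33 ± 1.73 TPM in liver vehicle, 8.36 ± 0.332 in liver TDB, 26.8 ± 0.595 in tumor vehicle and 22.6 ± 0.724 in tumor TDB (SD, n = 3 each). Its log2 fold change was 0.02 in liver (SE 0.28) and -0.10 in tumor (SE 0.10), and it passed the test in neither (edgeR adjusted p = 0.99 and 0.48). Dnase1l2, known from the skin, reached 1.28 ± 0.408 TPM in tumor vehicle and 1.58 ± 0.196 in tumor TDB and did not pass the test (log2 fold change 0.45, SE 0.32, edgeR adjusted p = 0.33). Dnase1, the digestive DNase I, had 4 reads over the liver vehicle libraries, 1 over the liver TDB libraries and 0 in tumor. Dnase1l1 and Dnase1 overlap other annotated genes, and without a stated strand setting such reads could not be told apart.

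As a share of the TPM of the 4 family genes, Dnase1l3 made up 81.8% to 93.1% in the 6 liver libraries. In tumor its share was 0.603% to 0.846% in the vehicle libraries and 47.9% to 55.8% in the TDB libraries. Dnase1l3 and Dnase1l1 thus stood at like levels per length in TDB-treated tumor, 26.8 and 22.6 TPM.

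**Figure D3:**
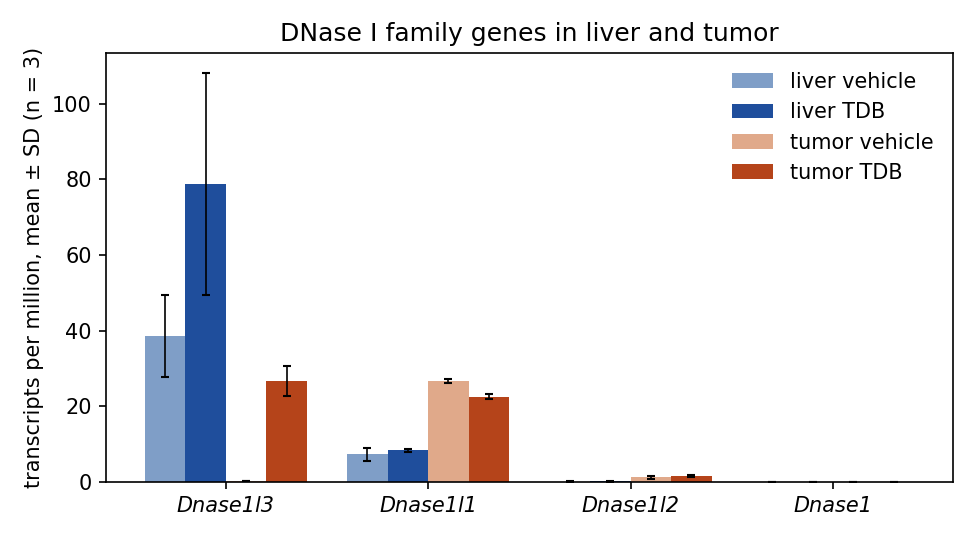
DNase I family genes in the 4 groups, in TPM; bars are means and error bars SDs over 3 libraries. Dnase1l3 is the tallest bar in liver, is near 0 in tumor vehicle and reaches 26.8 TPM in tumor TDB, beside 22.6 TPM for Dnase1l1.

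A list of other nucleases and related genes was mixed. Not all of its genes degrade DNA, and among the called genes Samhd1 and Rnaseh2b have the other roles given below. In tumor 2 of 11 tested genes of this list rose and 1 fell, where 15.8% of all 15454 genes tested were called higher and 13.1% lower, shares close to those of the list, and the median log2 fold change of the list was -0.10. In liver 1 of 12 rose and 0 fell, where 0.513% of 13657 genes were called higher and 0.022% lower. Samhd1, which breaks down the nucleotides needed for DNA synthesis, rose in tumor from 105.9 ± 4.08 to 1139.5 ± 157 CPM (SD, n = 3 each; log2 fold change 3.56, SE 0.12, edgeR adjusted p = 1.79e-07). Samhd1 also passed the test in liver (log2 fold change 3.03, SE 0.43, edgeR adjusted p = 0.040), a call lost without liver TDB 2 (0.112) and without liver vehicle 1, 2 or 3 (0.248, 0.190 and 0.193). Pld4, an exonuclease of the endolysosome, rose in tumor by 1.49 on the log2 scale (SE 0.13, edgeR adjusted p = 5e-05).

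Rnaseh2b, a subunit of the enzyme that removes RNA from DNA, fell by 0.32 on the log2 scale in tumor (SE 0.10, edgeR adjusted p = 0.042). That call was lost on leaving out tumor TDB 1, 2 or 3 or tumor vehicle 1 or 2 (adjusted p 0.104 to 0.129). Dnase2a, the lysosomal DNase, had log2 fold changes of -0.12 in liver and -0.30 in tumor and passed in neither (edgeR adjusted p = 0.93 and 0.11). Trex1, the cytosolic exonuclease, is listed at 0 in all 12 libraries and shares its locus with Atrip, so its level is not known from these counts. Dnase1l3 thus differed from Dnase2a in having a tumor change of 7.22 where that of Dnase2a was -0.30, both on the log2 scale.

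Of a list of nucleic acid sensors and genes of their pathways, many were higher in the tumors in which Dnase1l3 was high. The genes that rose include adaptors and signaling genes as well as sensors, so the counts are not counts of sensors. In tumor 8 of 12 genes of this list rose and 1 fell, with a median log2 fold change of 1.16, where 15.8% of all genes were called higher and 13.1% lower. In liver 1 of 11 rose, where 0.513% of all genes did. Tlr9, the endosomal receptor for DNA, went in tumor from 0.912 ± 0.413 to 9.70 ± 0.477 CPM (SD, n = 3 each; log2 fold change 3.54, SE 0.27, edgeR adjusted p = 2.86e-05). Unc93b1, which carries that receptor to the endosome, rose by 1.60 (SE 0.11, edgeR adjusted p = 1.81e-05) and Tmem173, the adaptor STING, by 1.44 (SE 0.16, edgeR adjusted p = 0.00046), both on the log2 scale in tumor. Zbp1, a sensor of Z-form nucleic acid, was the gene that passed in both tissues, with log2 fold changes of 4.53 in tumor (SE 0.28) and 3.59 in liver (SE 0.29; edgeR adjusted p = 0.00011 and 0.0022).

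Cgas, the cytosolic DNA sensor upstream of STING, fell by 0.55 on the log2 scale in tumor (SE 0.17, edgeR adjusted p = 0.041). This call was lost without tumor TDB 1 (0.0935), tumor TDB 2 (0.146), tumor vehicle 1 (0.0986) or tumor vehicle 2 (0.121). In liver Cgas had 0.343 ± 0.147 CPM after vehicle and 1.61 ± 0.446 CPM after TDB and did not pass (log2 fold change 2.09, SE 0.45, edgeR adjusted p = 0.14), though it did with DESeq2 (0.0232) and in the fit over 12 libraries (0.00963). Its tumor effect was lower than its liver effect by the interaction test (-2.69, SE 0.43, edgeR adjusted p = 0.0064), a direction that 0.658% of 16557 genes shared. Tmem173 did not pass in liver (log2 fold change 1.31, SE 0.31, edgeR adjusted p = 0.19) and did with DESeq2 (0.0167) and in the fit over 12 libraries (0.0216). Dnase1l3 and Cgas thus had differences of opposite sign between the tissues.

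Among genes for the opsonins and receptors of dead cells, 7 of 12 rose and 2 fell in tumor (median log2 fold change 0.75), beside 15.8% higher and 13.1% lower of all genes. In liver 0 of 16 passed, beside 0.513% higher and 0.022% lower of all genes. By edgeR, 2 of 16 had a larger effect in tumor than in liver, where 1.83% of 16557 genes did. C3, the central complement protein, went in tumor from 6.34 ± 3.48 to 271 ± 42.6 CPM (SD, n = 3 each; log2 fold change 5.54, SE 0.41, edgeR adjusted p = 0.00042), and did not pass in liver (0.49, SE 0.35, edgeR adjusted p = 0.81). Its tumor effect exceeded its liver effect by 5.02 (SE 0.62, edgeR adjusted p = 0.0011). Timd4, a receptor for phosphatidylserine on dying cells, had 7 reads over the tumor vehicle libraries and 243 over the tumor TDB libraries (log2 fold change 4.98, SE 0.50, edgeR adjusted p = 0.00014), and its effect was larger in tumor than in liver by 4.04 (SE 0.50, edgeR adjusted p = 0.0011). In tumor Timd4 passed the count filter only through the TDB libraries, so its tumor call is a description. On log2 of FPKM plus 1 the Timd4 difference turned to -0.301 and passed (limma adjusted p = 0.0036). In liver Timd4 did not pass (log2 fold change 0.87, SE 0.19, edgeR adjusted p = 0.16). C3 and Timd4 were, like Dnase1l3, far below their liver level in vehicle-treated tumor.

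The interferon-gamma response list gives the scale of the antibody response in which Dnase1l3 sits. By edgeR all 12 listed genes rose in tumor and 11 of 12 in liver, with median log2 fold changes of 6.05 and 3.50. In liver the 0.80 of Dnase1l3 lay below each of the 12, which ran from 1.81 (Irf1) to 5.47 (Gbp2). In tumor its 7.22 was larger than 9 of the 12 and smaller than 3, in a range from 4.07 (Tap1) to 10.11 (Cxcl9). Igtp, an interferon-induced GTPase, rose by 4.24 in liver (SE 0.23, edgeR adjusted p = 0.00098) and by 7.50 in tumor (SE 0.18, edgeR adjusted p = 1.70e-08). The effect of Igtp was larger in tumor by 3.22 (SE 0.29, edgeR adjusted p = 0.00011), and 10 of the 12 had a larger effect in tumor by that test. The difference of 6.38 for Dnase1l3 was above that of each of the 12, of which Cxcl9 had the largest (4.98). Dnase1l3 was chosen on this difference, so its place above the list is a description only. Igtp overlaps Irgm2 in the annotation.

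Markers of the cell types known to express Dnase1l3 are given beside its levels. In tumor, some markers of Kupffer cells and of liver sinusoidal endothelial cells, picked after their values were seen, were at or near 0 in both treatments. Other genes of both lists were counted there, as given below. Clec4f, a Kupffer cell lectin, had 0 reads in the 6 tumor libraries against 15938 over the liver vehicle libraries. Clec4g, a lectin of sinusoidal endothelium, had 0 reads in tumor vehicle and 1 in tumor TDB, and the scavenger receptor Stab2 had 4 and 1. The summed Kupffer cell list (9 genes) was 27.7 to 30.5 CPM in tumor vehicle and 15.9 to 17.4 CPM in tumor TDB, a difference carried by the iron exporter Slc40a1, without which the sum was 1.62 to 3.14 and 4.54 to 5.63 CPM (a sum chosen after seeing the data). Of 3 Kupffer cell markers tested in tumor, Timd4 rose and Slc40a1 fell.

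Of the pan-endothelial markers, which vessels of all tissues share, 0 of 14 rose in tumor by edgeR and 4 fell (15.8% and 13.1% of all genes did), among them the VEGF receptor Kdr, from 27.4 ± 4.47 to 13.1 ± 2.38 CPM (SD, n = 3 each; log2 fold change -0.94, SE 0.16, edgeR adjusted p = 0.0028). Their sum was 290.3 to 402 CPM in tumor vehicle and 219 to 330 CPM in tumor TDB. Dnase1l3 over that sum was 0.000566 to 0.00103 in tumor vehicle and 0.111 to 0.196 in tumor TDB. This ratio follows from the Dnase1l3 values by which the gene was chosen, and the part of vessel content was not tested. The sinusoidal endothelial list, many of whose genes other vessels and macrophages also express, summed to 329 to 370 CPM in tumor vehicle and 202 to 276 CPM in tumor TDB, with 2 of 6 tested genes up and 2 down, beside the same shares of all genes.

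Many dendritic cell and monocyte markers were higher in the same tumors as Dnase1l3. The mature dendritic cell list was split. There 3 of 5 tested genes rose, while the sum was 109 to 143 CPM in tumor vehicle and 98.5 to 103 CPM in tumor TDB. Of the classical dendritic cell list (11 genes) 7 of 9 tested rose and 1 fell (median log2 fold change 2.05). Of the plasmacytoid list (10 genes) 7 of 8 tested rose (1.77). Of the monocyte and macrophage list 7 of 12 rose and 1 fell (0.97). These stand beside the 15.8% of all genes called higher in tumor. Clec9a, a receptor of classical dendritic cells for dead cells, had 0 reads in tumor vehicle and 114 over the tumor TDB libraries (0 against 1.60 ± 0.604 CPM; edgeR adjusted p = 0.00062). Siglech, a surface lectin of plasmacytoid dendritic cells, went from 4 reads to 137 (log2 fold change 4.89, SE 0.46, edgeR adjusted p = 9.17e-05). Ly6c2, a marker of inflammatory monocytes, went from 1 read to 441 (ratio scaled to depth 385, counting interval 68.8 to 15251; edgeR adjusted p = 3.71e-06). These 3 markers were, like Dnase1l3, close to 0 in each vehicle tumor library. They passed the count filter in tumor only through the TDB libraries, so their tumor calls are descriptions. Clec9a overlaps Clec1b and Gm43914 in the annotation.

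The sums of those lists differed less between treatments than Dnase1l3 did. As Dnase1l3 was chosen on its antibody effects, this contrast is a description only. The classical dendritic cell sum was 138 to 164 CPM in tumor vehicle and 132 to 170 CPM in tumor TDB, of which Snx22, which fell, was 110.3 ± 16.7 and 40.7 ± 15.2 CPM (SD, n = 3 each), and without Snx22 it was 34.9 to 39.9 and 101 to 111 CPM. The plasmacytoid sum was 68.1 to 81.0 and 92.4 to 99.4 CPM, most of it in vehicle from the broadly expressed Tcf4, without which it was 16.3 to 20.9 and 44.2 to 51.9 CPM. The monocyte and macrophage sum was 547 to 823 and 747 to 1049 CPM. Dnase1l3 over the classical dendritic cell sum was at most 0.00237 in a vehicle tumor library and at least 0.242 in a TDB tumor library. This ratio too follows from the Dnase1l3 values by which the gene was chosen. T cell markers rose as well in tumor, 8 of 9 by edgeR, with sums of 3.19 to 6.11 CPM after vehicle and 16.0 to 25.9 CPM after TDB. The part of these cell types in the Dnase1l3 difference was not tested.

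**Figure D4:**
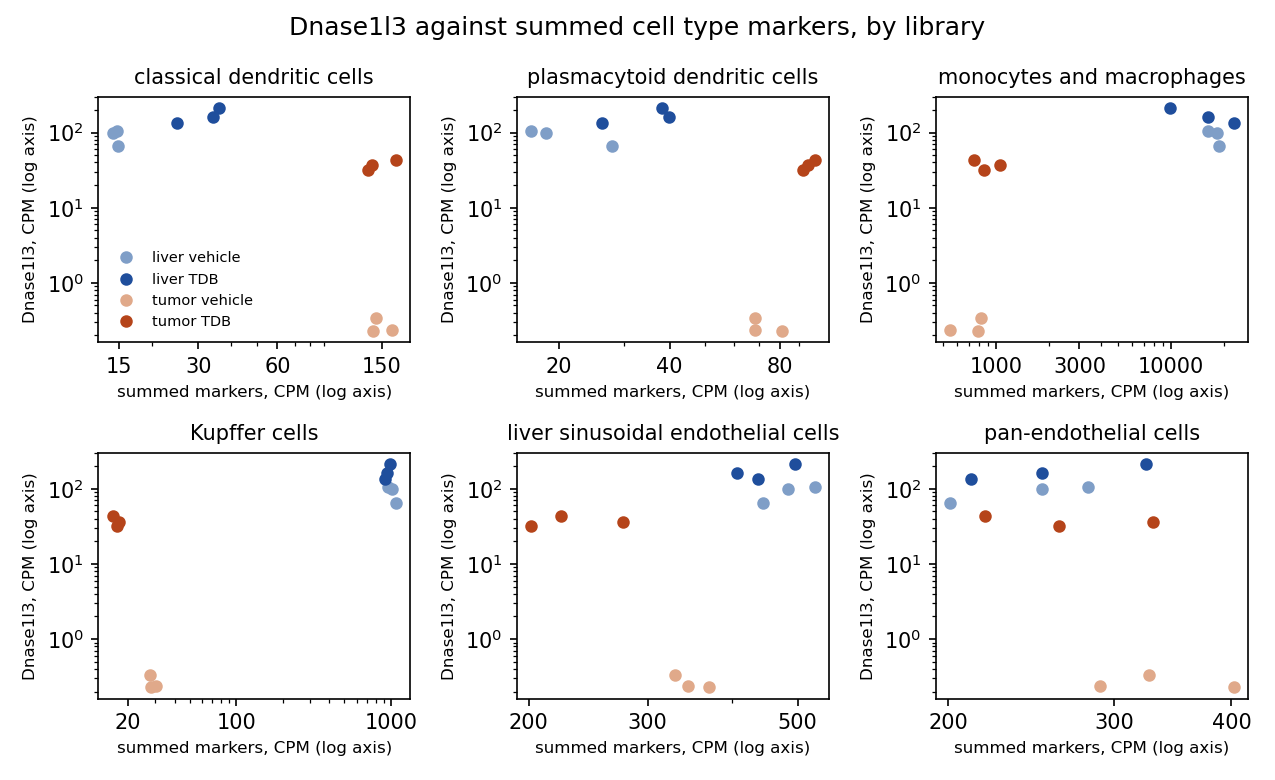
Dnase1l3 (y axis, CPM) against the summed CPM of cell type marker lists (x axis), both on log axes, 1 point per library and 1 panel per list. In the tumor libraries Dnase1l3 differs 139-fold between treatments, a difference on which the gene was chosen. The smaller differences of the summed markers beside it are therefore a description only. Most of the classical dendritic cell sum in tumor vehicle is Snx22. Kupffer cell markers are low in all tumor libraries.

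In liver, Dnase1l3 relative to summed markers separated the treatments for the endothelial and Kupffer cell lists and overlapped for the classical dendritic and T cell lists. Separation was not particular to those lists. The treatments also separated for the fibroblast, B cell, mature dendritic cell and hepatocyte lists (hepatocytes 0.000424 to 0.000647 after vehicle, 0.00101 to 0.00169 after TDB). They overlapped for the monocyte and macrophage, plasmacytoid, neutrophil, NK cell, mammary epithelium and adipocyte lists. Over the pan-endothelial sum, Dnase1l3 was 0.397, 0.326 and 0.375 in the vehicle libraries and 0.633, 0.638 and 0.660 in the TDB libraries, groups that did not overlap and whose TDB values lay close together. Over the sinusoidal endothelial sum it was 0.147 to 0.206 after vehicle and 0.306 to 0.432 after TDB, and over the Kupffer cell sum 0.0606 to 0.111 and 0.147 to 0.216. Relative to the classical dendritic cell sum, which was 14.1 to 14.8 CPM after vehicle and 24.9 to 35.8 CPM after TDB, the ratio was 4.41 to 7.19 and 4.70 to 5.99. Relative to the T cell sum it was 5.36 to 9.0 and 5.60 to 6.10, where the groups overlap. By edgeR, 0 of 12 sinusoidal endothelial, 0 of 14 pan-endothelial and 0 of 8 classical dendritic cell markers passed in liver, where 0.513% of all genes were called higher and 0.022% lower. Clec9a lay near the threshold there (log2 fold change 3.75, SE 0.61, edgeR adjusted p = 0.057) and passed in 6 of 15 alternatives, with DESeq2 among them. As Clec9a overlaps Clec1b and Gm43914, its reads could not be told apart from theirs where they overlap. Of 9 Kupffer cell markers, Marco, a scavenger receptor, passed (log2 fold change 2.75, SE 0.42, edgeR adjusted p = 0.043), a call lost without liver TDB 2 (0.159) and without liver vehicle 1, 2 or 3 (0.248, 0.200 and 0.248).

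The genes whose profile was most like that of Dnase1l3 were found by Pearson's r of log2 CPM over the 12 libraries after the mean of each tissue was subtracted, among 11416 genes with a mean of at least 1 CPM in both tissues. The 10 highest were Gm4951 (0.993), Stat2 (0.991), Pigr (0.987), Fgr (0.984), Slc2a6 (0.984), P2ry14 (0.983), Gzmb (0.982), Hdc (0.981), Gbp8 (0.981) and Tmem106a (0.980), where the median gene had -0.13. These r values describe 12 libraries that share 2 tissues and 2 treatments. Pigr, the receptor that carries antibodies across epithelia, came closest in size too, with log2 fold changes of 0.21 in liver and 6.68 in tumor, and mean levels of 1186 and 1485 CPM in liver and 9.05 and 845 CPM in tumor, vehicle first. Gzmb, the granzyme B protease of cytotoxic lymphocytes, had 0.36 and 6.43. Stat2, a signal transducer of type I interferon, shared the shape at a smaller size, with 0.61 and 3.29.

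Measured in other ways the most alike genes were mostly different ones. Without the tissue means subtracted, 1 of the 10 was shared (Pigr), and by root mean square difference of the centred profiles 3 of the 10 were shared (Gzmb, Pigr and Slc2a6). In the 6 tumor libraries alone, Ly6c2, Tap2, Erap1 and Gm4841 were among the 5 highest, each with r of 0.999. In the 6 liver libraries alone they were Nub1, Rnf31, Gm17087, Plcb2 and Vav1, with r of 0.994 to 0.996. Gm4951, Gm4841 and Gbp8 belong to families with near-identical copies, so their counts are uncertain.

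**Figure D5:**
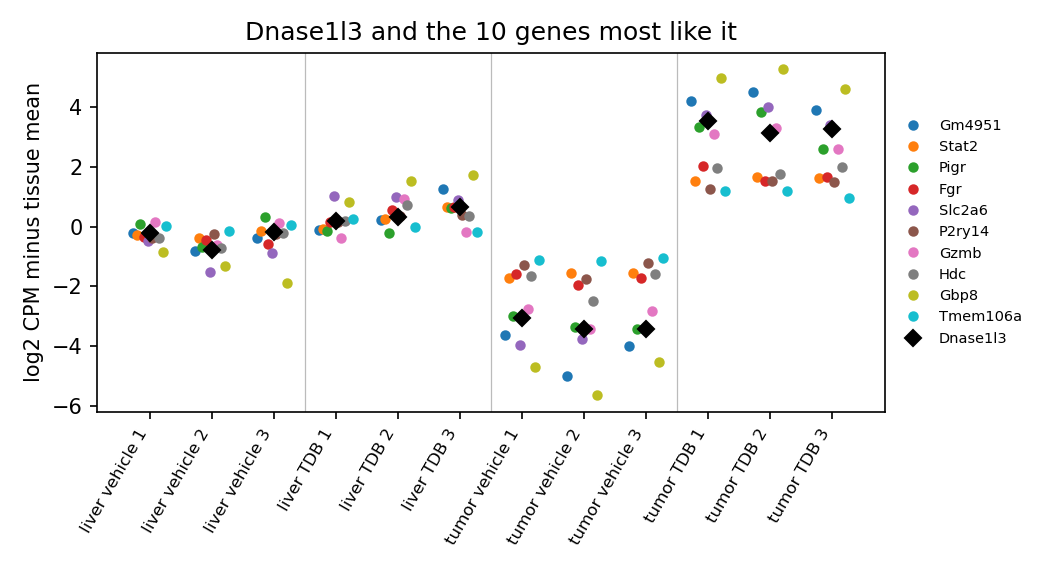
Log2 CPM minus the mean of each tissue for Dnase1l3 (black diamonds) and the 10 genes with the highest r, by library. All 10 lie low in tumor vehicle and high in tumor TDB and differ less in liver; Pigr lies closest to Dnase1l3 and Gbp8 spans the widest range in tumor.

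The neighbours of Dnase1l3 on chromosome 14 given here differed far less between the tumor groups. Abhd6, a lipid hydrolase gene 8328 bases away, was lower in TDB-treated tumor (log2 fold change -0.39, SE 0.12, edgeR adjusted p = 0.036), a call lost without tumor TDB 1, 2 or 3 or tumor vehicle 1 or 2 (0.0735 to 0.126). Beyond it Rpp14 and Pxk had tumor log2 fold changes of -0.07 and 0.11 (edgeR adjusted p = 0.69 and 0.37), and Pxk had 0.67 in liver (SE 0.20, edgeR adjusted p = 0.33). On the other side, Gm45521 and the pseudogene Gm8396 had 0 counts and at most 0.362 CPM in a group mean. Of Abhd6, Rpp14 and Pxk, none rose in tumor by edgeR.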

How the data were processed

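RNA of 12 libraries was sequenced on an Illumina instrument, per the labels' protocols. The authors deposited raw gene counts and FPKM values. GSNAP, limma and GRCm38 are named in the submitters' processing notes, and their roles, the read counter, the strand setting and the annotation were not given in the sources used here. The deposited FPKM values divide by genomic span, introns included (within 1% for 83.8% of 6963 genes checked, Dnase1l3 among them), and served as an alternative. Depth was 18460159 to 29396324 counts per library.

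The test across genes was that of edgeR 4.0.16 under R 4.3.3 (TMM, genes kept at a minimum count of 10 and total of 15, robust quasi-likelihood F test), within liver, within tumor and as an interaction over the 12 libraries. Benjamini-Hochberg adjustment ran over all genes, with a threshold of 0.05. Within a tissue, a gene near 0 in vehicle passed the count filter only if it was counted after TDB. SEs of edgeR effects were back-calculated from the F test. For Dnase1l3 in tumor and for its difference they were smaller than those of DESeq2 and limma-voom. They may therefore understate counting error in genes with few reads. The fits were tested on simulated data with less spread between libraries than the liver and interaction fits estimated, and with changed genes that were not near 0. That test does not speak for liver or for genes with few reads. Symbols came from GENCODE M21 (52403 identifiers matched). Mice are the replicates by the design text. TPM used the union of exons, and intervals cover counting error only.

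Dnase1l3, its comparison lists and the alternatives were chosen with earlier results of these data known. Named were family members, up to 4 passing genes per list by smallest adjusted p, 5 genes whatever their values (Trex1, Dnase2a, Tlr9, Cgas, Tmem173), the most alike genes, 3 neighbours on each side and the 5 genes next by interaction p. Some genes that this rule names are not reported here. Beyond this rule, Clec4f, Clec4g, Stab2, Snx22 and Tcf4, and genes named as the ends of a list's range, were chosen after their values were seen. Fits were unpaired, because no label ties libraries across tissues and same-numbered libraries did not deviate together in every pair. That check cannot exclude a pairing. Alternatives were other scalings, no filter, DESeq2 1.42.0, limma 3.58.1 (voom, and FPKM plus 1 or 0.1 on a log2 scale), a fit over 12 libraries, a replicate block and leaving out each library.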

Additional observations from a re-analysis of the deposited data

Results flagged for a closer look

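6 of the named genes other than Dnase1l3 had an antibody effect that differed between tumor and liver by the edgeR interaction test over the 12 libraries. C3 (5.02, SE 0.62, adjusted p = 0.0011), Timd4 (4.04, SE 0.50, adjusted p = 0.0011), Siglech (3.96, SE 0.54, adjusted p = 0.0019), Ly6c2 (6.56, SE 1.09, adjusted p = 0.0071) and Igtp (3.22, SE 0.29, adjusted p = 0.00011) had the larger log2 effect in tumor. Cgas had the lower log2 effect in tumor (-2.69, SE 0.43, adjusted p = 0.0064). On log2 of FPKM plus 1 the differences of Siglech (0.00889, limma adjusted p = 0.96) and Ly6c2 (0.557, limma adjusted p = 0.18) did not pass, and that of Timd4 passed in the opposite direction (-0.301, limma adjusted p = 0.0036). Siglech and Ly6c2 did not pass in liver alone (log2 fold change 0.84 and 1.52, edgeR adjusted p = 0.48 and 0.57). Dnase1l3 itself was chosen on this difference and is given as a description only. Ly6c2 had 1 read over the tumor vehicle libraries, so its fitted value depends on the prior count.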

How the results depend on the processing

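The log2 effect of Dnase1l3 stayed positive under each of the 15 alternatives run in liver, 15 in tumor and 21 for the difference. Leaving out single libraries gave 0.64 to 0.90 in liver, 7.11 to 7.41 in tumor and 6.26 to 6.60 for the difference. On FPKM plus 1 and plus 0.1, a scale that shrinks low values, the tumor effect was 0.86 and 3.13 and the difference 0.24 and 2.41. The number of genes called in liver (73) was 145 without the filter, 320 with DESeq2, 26 on FPKM plus 1, 323 in the fit over 12 libraries and 14 to 163 on leaving out single libraries. In tumor (4456) it was 1695 in the fit over 12 libraries and 2942 to 4860 on leaving out single libraries. For the interaction (412) it was 856 with DESeq2, 1066 and 777 on FPKM plus 1 and 0.1, and 241 to 696 on leaving out single libraries. Correlations of the deviations of same-numbered libraries ran from -0.0871 to 0.597. Between liver and tumor they ran from -0.0603 to 0.116. The highest, 0.452 and 0.597, joined liver vehicle and liver TDB libraries, which come from different mice. The liver libraries numbered 2, and those numbered 3, also leaned the same way by gene length. These values do not settle whether the numbers pair the libraries. Within a tissue the replicate block joined same-numbered vehicle and TDB libraries, which come from different mice. For the interaction it joined same-numbered liver and tumor libraries of a treatment. With the replicate block the calls were 350 in liver, 4622 in tumor and 258 for the interaction, and Dnase1l3 had 0.80, 7.22 and 6.37. Signs turned for genes near 0 that passed in no setting: Dnase1l1 in liver was -0.0160 with upper quartile scaling, -0.0299 and -0.0537 on FPKM plus 1 and 0.1, -0.0183 in the fit over 12 libraries and -0.133 to 0.185 on leaving out single libraries, and Dnase2a in liver was -0.361 to 0.143 on leaving out single libraries (0.143 without liver TDB 3). The interaction of Timd4, a called gene, was -0.301 (limma adjusted p = 0.0036, a call in the opposite direction) and -0.0207 on FPKM plus 1 and 0.1. On the same scales the interaction calls of Siglech (0.00889 and 0.511) and, on plus 1, Ly6c2 (0.557) were lost. With the block Cgas and Tmem173 passed in liver (edgeR adjusted p = 0.0256 and 0.0335), calls that are not adjusted for mouse. In sums chosen after seeing the data, the tumor difference of summed markers turned from -12.0 to 2.75 CPM without Slc40a1 (Kupffer cells) and from -1.63 to 68.0 CPM without Snx22 (classical dendritic cells). With 3 libraries a group and 17 reads of Dnase1l3 in vehicle tumor, the size of the tumor effect is limited by counting error. The cause of these shifts was not tested.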

Other observations

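Dnase1l3 was also set beside other genes that were abundant in liver and nearly absent from tumor, with criteria chosen after its values were seen. Of 340 genes with a mean of at least 50 CPM in liver vehicle and under 1 CPM in tumor vehicle, 5 reached 10 CPM or more in tumor TDB: Gm4951 (155 ± 29.1), Gbp11 (81.9 ± 18.1), Dnase1l3 (37.2 ± 5.43), Cfb (10.0 ± 2.63) and F10 (10.0 ± 2.94; mean CPM ± SD, n = 3). Cfb encodes complement factor B and F10 coagulation factor X. In all, 13 of the 340 reached 1 CPM, 7 reached 2 CPM and 6 reached 5 CPM. In liver Gbp11 had 73.9 ± 16.0 CPM after vehicle and 1105 ± 559.7 CPM after TDB, while F10 had 824 ± 103 and 754 ± 195 CPM. Gm4951 and Gbp11 have near-identical copies, so their counts are uncertain.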
